A study of Mus musculus with 15 samples.

Results

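The genes described here are 38 that carry cells through mitosis and the spindle checkpoint, the control that holds chromosome separation until every chromosome is attached to the spindle. They were chosen by name, as a list of known mitosis genes, with earlier results of these data known. All 38 were found among the 32434 entries of the deposited table. In the table they are entered in capitals: CDK1, CCNA2, CCNB1, CCNB2, CDC25B and CDC25C for mitotic entry, FOXM1 as transcription factor, PLK1, PLK4 and AURKA as kinases, and AURKB, INCENP, BIRC5 and CDCA8 for the chromosomal passenger complex. BUB1, BUB1B, BUB3, MAD2L1 and TTK serve the checkpoint, CDC20, UBE2C, PTTG1 and ESPL1 anaphase, and CENPA, CENPE, CENPF, NDC80 and NUF2 the centromere and kinetochore. KIF11, KIF2C, KIF4 and TPX2 act on the spindle, KIF20A, KIF23, PRC1 and ECT2 in the midzone and cytokinesis, and MKI67 and TOP2A are known as marks of proliferation. All 38 also passed the filter on low values, at least 1 CPM (count scaled to a common library size) in at least 3 libraries, that left 11773 entries for testing. The libraries come from 5 lines of mouse myeloma, a cancer of plasma cells, numbered IL6Myc-1 through IL6Myc-5. Each line was derived from mice of the IL6Myc genotype and is represented by 3 RNA sequencing libraries that the labels call technical replicates, with 19068543 to 41165599 estimated counts per library. All 5 lines share that genotype, and no line of another genotype, no normal plasma cell and no treated culture is among the 15 libraries. Each line is a single biological unit, so the p-values below rest on technical spread within lines and not on the spread between tumours or mice. The question that this design allows is how far the levels of the mitosis genes differ between the lines.

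Mitosis is started by the kinase CDK1 with cyclin B, built up by the Polo and Aurora kinases and policed by the spindle checkpoint, which blocks the anaphase-promoting complex (APC/C) until all kinetochores are attached. Most genes of this programme are transcribed late in the cell cycle, in G2 and mitosis, and are kept low in cells that have left the cycle. The cell cycle genes homology region (CHR), bound by complexes built on MuvB, and the CCAAT box, bound by NF-Y, are the promoter elements known for this timing. A normal plasma cell has stopped dividing, whereas the level of mitosis genes is used as a measure of proliferation in human myeloma.

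Promoter windows of 300 bases, from 250 before to 50 after the annotated start, were taken from RefSeq on the GRCm38.p6 build and matched 31 of the 38 members with 34 windows. Both strands were searched for the CHR, spelled TTTGAA or TTTAAA, for CCAAT and, as a contrast, for the E2F core TTCGCGC, an element of genes of the start of S phase. A CHR stood in 85.3% of the members' windows, against 27.6% of all 32851 windows and 19.9% of the windows of tested genes. CCAAT stood in 79.4% of the members' windows, against 37.4% of all windows and 38.8% of those of tested genes. Both elements occurred together in 73.5% of the members' windows, against 10.7% and 8.05% in these 2 sets. The E2F core was present in 1 member window, that of Cdk1, which is 2.94%, against 1.59% of all windows and 3.15% of those of tested genes. In the windows of the 107 other mitosis genes that had one, the CHR stood in 43.7%, CCAAT in 57.1%, both in 29.4% and the E2F core in 1.68%. In those of 28 replication and S phase genes the shares were 35.5% for the CHR, 61.3% for CCAAT, 16.1% for both and 19.4% for the E2F core, and the differences between these sets were not tested. In the first window of each gene, 26 of 38 CHR matches began within 50 bases of the start, as the map of promoter elements shows. In the members' windows, 1 pair of matches to different elements and 1 pair of CCAAT matches on opposite strands overlapped. Such a match describes the letters of a window and does not show that a factor binds there.

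The windows below belong to the 4 members with a window whose log2 difference in IL6Myc-2 was lowest, and to Kif23 and Mad2l1, the 2 members whose difference there was above 0. Ccnb2 lies at chr9:70421505-70421804 on the minus strand, Ttk at chr9:83834439-83834738 on the plus strand, Kif11 at chr19:37376132-37376431 on the plus strand and Plk1 at chr7:122159185-122159484 on the plus strand. Kif23 lies at chr9:61946750-61947049 on the minus strand and Mad2l1 at chr6:66534971-66535270 on the plus strand. Each is written 5′ to 3′ in the direction of transcription, and capitals mark the CHR and CCAAT matches on either strand, so that TTCAAA and ATTGG are matches on the opposite strand.
Ccnb2: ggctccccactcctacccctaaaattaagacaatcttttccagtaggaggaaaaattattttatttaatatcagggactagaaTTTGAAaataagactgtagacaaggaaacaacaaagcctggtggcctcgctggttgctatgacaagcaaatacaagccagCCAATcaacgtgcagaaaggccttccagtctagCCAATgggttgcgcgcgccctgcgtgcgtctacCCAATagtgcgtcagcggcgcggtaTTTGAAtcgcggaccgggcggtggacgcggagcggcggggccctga
Ttk: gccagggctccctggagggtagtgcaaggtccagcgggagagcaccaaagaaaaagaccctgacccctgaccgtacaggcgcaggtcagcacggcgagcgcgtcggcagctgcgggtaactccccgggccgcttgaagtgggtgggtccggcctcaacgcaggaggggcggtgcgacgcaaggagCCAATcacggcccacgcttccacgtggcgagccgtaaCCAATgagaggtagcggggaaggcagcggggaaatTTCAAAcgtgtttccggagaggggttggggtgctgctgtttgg
Kif11: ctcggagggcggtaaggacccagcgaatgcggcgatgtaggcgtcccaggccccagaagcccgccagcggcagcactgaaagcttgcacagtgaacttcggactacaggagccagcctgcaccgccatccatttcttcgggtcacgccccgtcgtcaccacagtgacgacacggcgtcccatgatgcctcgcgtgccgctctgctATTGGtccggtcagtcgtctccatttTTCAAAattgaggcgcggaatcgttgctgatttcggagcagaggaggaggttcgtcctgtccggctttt
Plk1: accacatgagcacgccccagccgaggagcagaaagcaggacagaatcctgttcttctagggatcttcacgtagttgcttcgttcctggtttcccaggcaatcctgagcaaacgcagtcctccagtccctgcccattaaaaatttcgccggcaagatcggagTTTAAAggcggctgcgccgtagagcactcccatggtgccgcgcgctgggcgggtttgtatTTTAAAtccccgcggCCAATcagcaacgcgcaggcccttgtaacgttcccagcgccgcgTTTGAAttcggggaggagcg
Kif23: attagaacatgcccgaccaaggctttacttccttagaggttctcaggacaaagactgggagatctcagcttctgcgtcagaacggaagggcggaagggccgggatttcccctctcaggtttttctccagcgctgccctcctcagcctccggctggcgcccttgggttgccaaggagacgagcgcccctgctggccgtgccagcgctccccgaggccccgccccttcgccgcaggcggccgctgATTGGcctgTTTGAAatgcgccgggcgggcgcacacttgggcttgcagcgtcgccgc
Mad2l1: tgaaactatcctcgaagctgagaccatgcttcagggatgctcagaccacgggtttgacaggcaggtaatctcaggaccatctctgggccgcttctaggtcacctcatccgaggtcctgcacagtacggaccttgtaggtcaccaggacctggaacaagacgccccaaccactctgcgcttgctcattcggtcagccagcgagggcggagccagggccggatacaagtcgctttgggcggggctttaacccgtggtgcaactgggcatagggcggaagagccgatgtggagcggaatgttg
The Ccnb2 window held 3 CCAAT boxes at -87, -54 and -21 and CHR matches at -167 and +5, counted from the first transcribed base as +1. Kif11 had 1 of each element, at -45 and -19, and Ttk had CCAAT at -65 and -28 and a CHR at +8. Kif23 had both elements as well, a CCAAT at -7 and a CHR at +3, whereas none of the letters searched occurred in the Mad2l1 window. Pttg1 and Nuf2 were the other members with neither the CHR nor CCAAT in their windows.

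**Figure D1:**
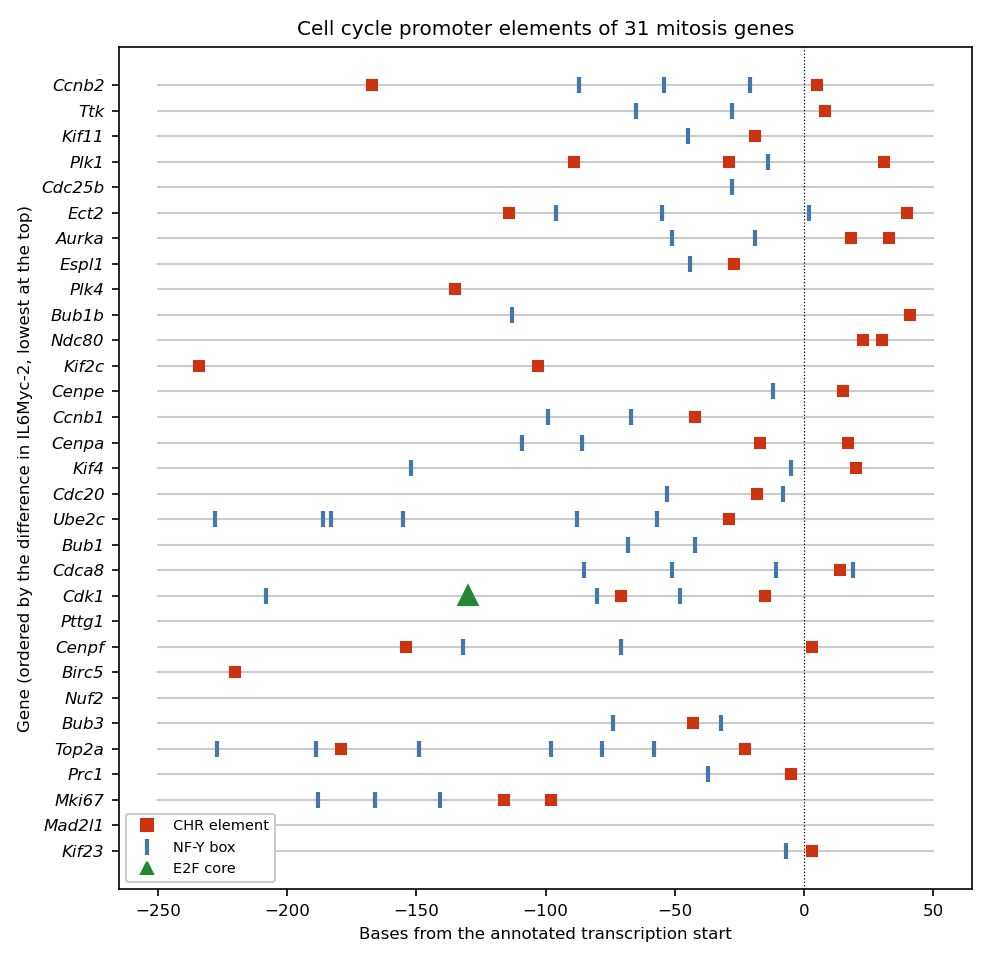
CHR, CCAAT (drawn as NF-Y box) and E2F core matches in the promoter windows of 31 mitosis genes (the first window of a gene with 2), plotted by distance in bases from the annotated transcription start (x axis), with 1 row per gene ordered by its log2 difference in IL6Myc-2, the lowest at the top (y axis). Of the 38 CHR matches drawn, 26 begin within 50 bases of the start. Kif23 and Mki67 near the bottom hold both elements, and Mad2l1 holds neither.

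All 5 lines expressed every one of the 38 genes, and the highest line mean of a gene was 1.24 to 2.02 times its lowest, with a median of 1.61. Only Kif11, a motor that pushes spindle poles apart, and Kif20a, a motor of the spindle midzone, differed by 2-fold or more between any lines. Those 2 of 38 members, 5.26%, stand against 32.1% of all tested genes called in the same F-test over the lines (edgeR's quasi-likelihood test, adjusted p under 0.05, with line means at least 1 apart on the log2 scale). At 1.5-fold 25 passed, which is 65.8% of the members, against 57.6% of all tested genes. Without a size limit all 38 passed at an adjusted p under 0.05, as did 91.7% of all tested genes. The median range of the line means was 0.69 on the log2 scale for the members and 0.70 for all tested genes. At 2-fold with a filter at 5 CPM in place of 1 CPM, 2449 of 9932 tested genes passed the F-test. Kif11 and Kif20a stayed the only members called there. Levels are in CPM on scaled library sizes, and no correction for transcript length was made here, so they are compared between lines and not between genes.

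**Figure D2:**
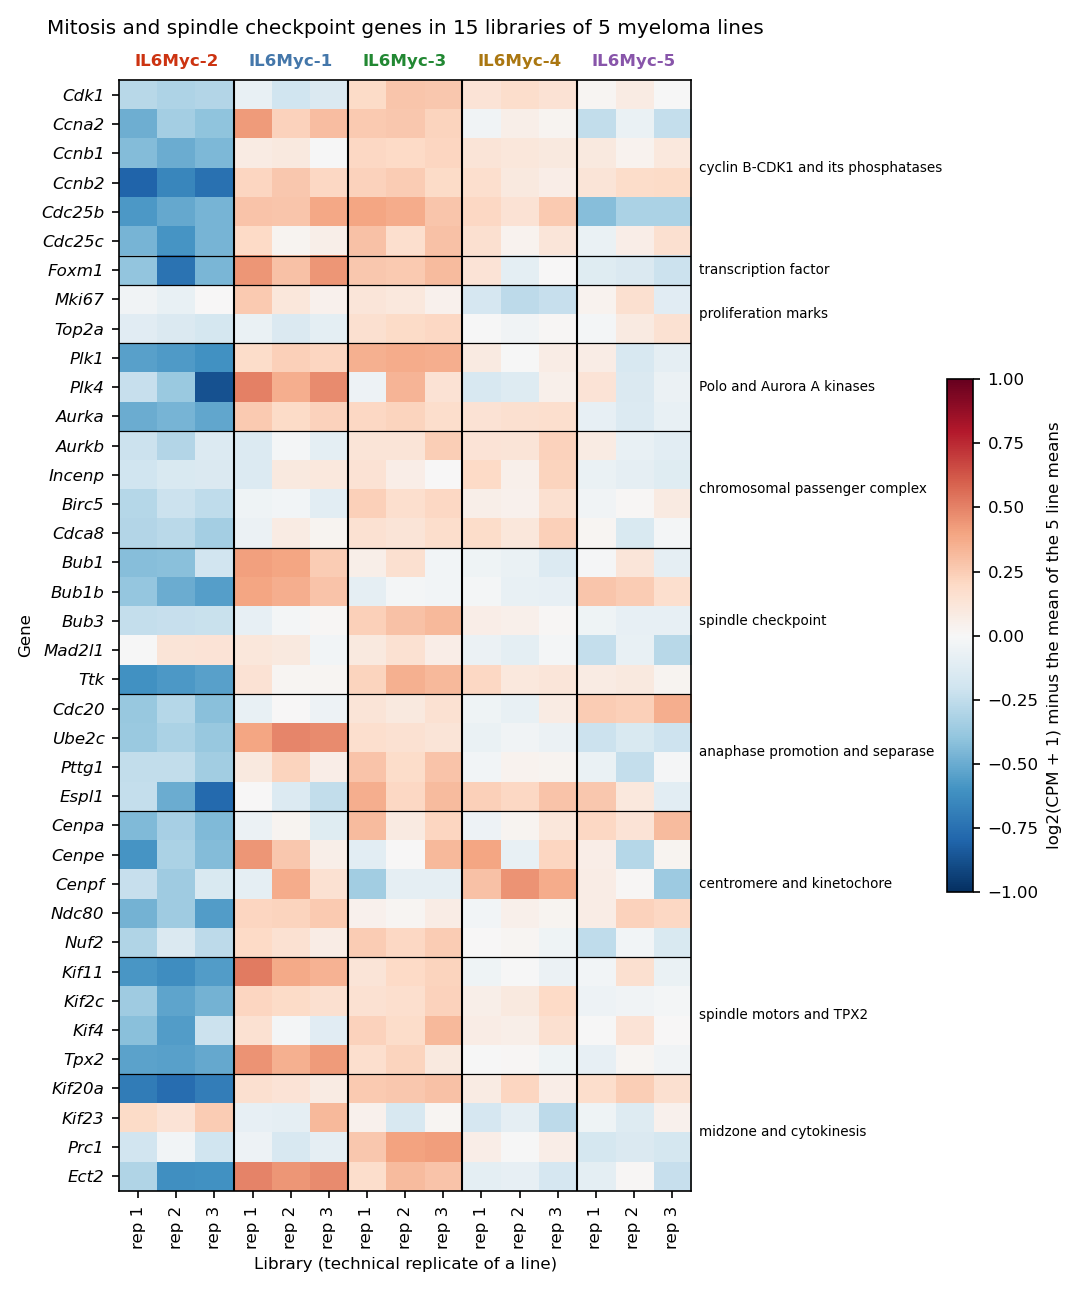
Level of each of the 38 mitosis genes (rows, grouped by role) in each of the 15 libraries (columns, by line), as log2(CPM + 1) minus the gene's mean over the 5 lines, with blue below and red above that mean. The 3 columns of IL6Myc-2 are blue for nearly all genes, with Mad2l1, Kif23 and Mki67 as exceptions, and the columns of IL6Myc-1 and IL6Myc-3 hold most of the red.

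IL6Myc-2 had the lowest mean of the 5 lines for 34 of the 38 genes, where 25.3% of all tested genes were lowest in that line. For 29 of the 38 all 3 libraries of IL6Myc-2 lay below the 12 libraries of the other lines, a pattern that 11.2% of all tested genes showed. Against the mean of the other 4 lines the median log2 difference of the members in IL6Myc-2 was -0.52, with values from -0.93 to 0.25, beside a median of -0.01 for all tested genes. No member reached a 2-fold difference in that contrast: 0 were called lower, where 4.08% of all tested genes were, and 0 were called higher, where 8.6% were. DESeq2 and limma called 0 in either direction as well. At an unadjusted p under 0.05 in edgeR 35 were lower and 2 higher, and the shares of all tested genes there were not counted. At a threshold of 1.5-fold 15 members were lower in IL6Myc-2 (39.5%, against 8.81% of all tested genes). At any size 35 were lower (92.1%, against 32.2%) and 1, Kif23, was higher (2.63%, against 33.4%). Of the 34 genes lowest in IL6Myc-2, 29 were also below the next line in the order at an adjusted p under 0.05 in edgeR, as were 40.7% of the 2977 tested genes that were lowest there. Among the 31 members with a promoter window, the 22 with both a CHR and CCAAT had a median log2 difference in IL6Myc-2 of -0.51 (range -0.93 to 0.25) and the 9 others -0.44 (range -0.67 to 0.11), and the difference between them was not tested. In bulk RNA, fewer cells in mitosis and less of these RNAs per cell cannot be told apart.

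IL6Myc-2 also stood apart from the other lines in several other features of its libraries. Immunoglobulin genes took 11.5 ± 0.114% of the counts there, against means of 4.91 to 6.67% in the other lines (SD, n = 3 libraries each). The 18S ribosomal RNA gene Rn18s took 0.539%, against 0.224 to 0.362%. The TMM scaling factors of IL6Myc-2 were 0.848 to 0.860, against 0.988 to 1.08 in the other 12 libraries. With immunoglobulin genes and ribosomal RNA left out before scaling, the members' median in IL6Myc-2 was -0.52 as well. As a share of all counts in the library, before any scaling, the 38 genes took 0.256 ± 0.00266% in IL6Myc-2, against 0.365% in IL6Myc-5, 0.394% in IL6Myc-4, 0.422% in IL6Myc-1 and 0.438% in IL6Myc-3. On library totals alone the median log2 difference of all tested genes in IL6Myc-2 was -0.29. Part of the lower share was therefore not particular to the 38 genes. All 8 plasma cell markers examined (Sdc1, Xbp1, Irf4, Prdm1, Jchain, Igkc, Igha and Tnfrsf17) were above 1 CPM in every line. In IL6Myc-2 they went different ways: Igkc was called higher (log2 difference 1.53) and Tnfrsf17 lower (-1.48). Tnfrsf17 averaged 8.80 CPM there, against 10.2 to 47.5 CPM in the other lines. Jchain and Igha had their highest mean in IL6Myc-2, Sdc1, Xbp1 and Prdm1 their lowest, and Irf4 neither. Of the markers of other cells, the 5 myeloid genes summed to 11.5 to 11.9 CPM in the IL6Myc-2 libraries, against 1.11 to 5.41 CPM elsewhere, and nearly all of that was Itgam at 11.6 CPM. Among the 5 genes of T and NK cells, Cd3d was at 7.603 CPM in IL6Myc-2, against 0.0954 to 3.42 CPM, and the list summed to 9.02 to 11.8 CPM there, against 0.743 to 6.61 CPM. Lyz2, Cd14, Cd8a and Nkg7 had no counts in IL6Myc-2, where 3 counts over the line correspond to 0.0527 CPM, and the fibroblast and erythroid lists summed to less than 1 CPM in every library. The part of these markers in the levels of the mitosis genes was not tested.

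**Figure D3:**
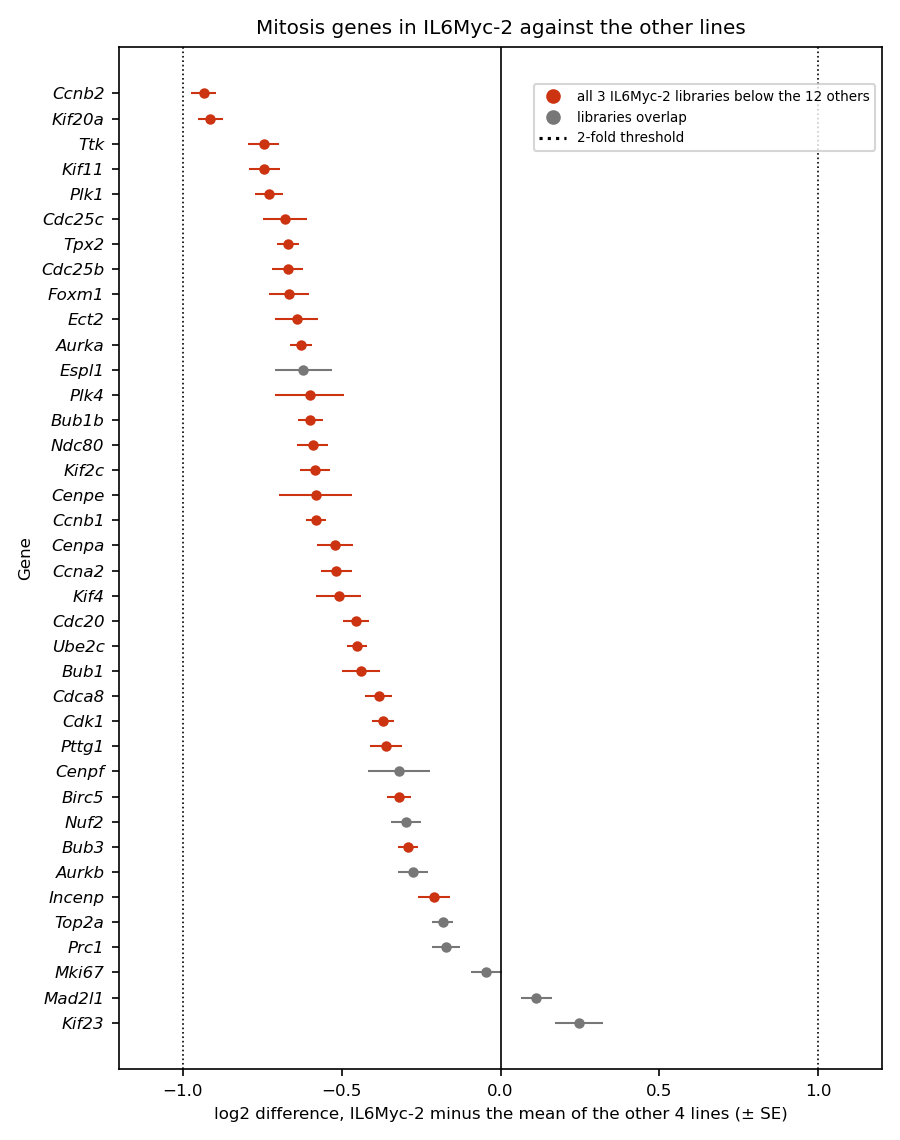
Log2 difference of IL6Myc-2 from the mean of the other 4 lines for each of the 38 mitosis genes, ordered by size, with bars of 1 standard error (x axis: log2 difference). Red points are the 29 genes whose 3 IL6Myc-2 libraries all lie below the 12 others, grey points are the rest, and all points lie inside the dotted 2-fold lines, from -0.93 for Ccnb2 to 0.25 for Kif23.

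The genes that start mitosis were low in IL6Myc-2 without exception: each of the 6 had all of its IL6Myc-2 libraries below the 12 others, and the median log2 difference of the group was -0.62. Cdk1, the kinase itself, was at 79.4, 77.7 and 78.8 CPM in IL6Myc-2, against 91.5, 83.8 and 87.2 in IL6Myc-1, 111, 117 and 117 in IL6Myc-3, 106, 109 and 107 in IL6Myc-4 and 97.7, 102 and 96.3 in IL6Myc-5. It was the least displaced of the group in IL6Myc-2, at -0.37 ± 0.03 (log2 ± SE, adjusted p = 6.13e-08 in edgeR), and its levels ran upwards from IL6Myc-2 through IL6Myc-1, IL6Myc-5 and IL6Myc-4 to IL6Myc-3, the last 2 of which did not differ beyond their spread. Ccnb1, cyclin B1, was at 71.3, 68.1 and 70.3 CPM in IL6Myc-2, against 102, 103 and 96.3 in IL6Myc-1, 111, 111 and 112 in IL6Myc-3, 105, 104 and 103 in IL6Myc-4 and 103, 99.0 and 104 in IL6Myc-5. Its log2 difference in IL6Myc-2 was -0.58 ± 0.03. Above IL6Myc-2, the lines IL6Myc-1, IL6Myc-5 and IL6Myc-4 did not differ between neighbours, and IL6Myc-3 was above IL6Myc-4. Ccnb2, cyclin B2, was at 39.8, 44.1 and 41.4 CPM in IL6Myc-2, against 81.4, 84.7 and 81.0 in IL6Myc-1, 82.6, 83.8 and 80.2 in IL6Myc-3, 78.9, 75.3 and 73.5 in IL6Myc-4 and 76.7, 79.9 and 80.4 in IL6Myc-5. That was the largest difference of any of the 38 genes in any line, -0.93 ± 0.04 (adjusted p = 2.39e-12 in edgeR), short of 2-fold. No neighbours among the other 4 lines differed. The F-test over those 4 lines, with IL6Myc-2 left out, gave an adjusted p of 0.0884 in edgeR.

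The other cyclin and the phosphatases were lowest in IL6Myc-2 too, and Ccna2 and Cdc25b also separated some of the other lines. Ccna2, cyclin A2, which acts from S phase into early mitosis, averaged 124 ± 6.74 CPM in IL6Myc-2, against 146 ± 10.4 in IL6Myc-5, 167 ± 5.86 in IL6Myc-4, 197 ± 3.18 in IL6Myc-3 and 207 ± 14.04 in IL6Myc-1 (SD, n = 3 libraries each). Cdc25b, a phosphatase that removes the inhibitory phosphates of CDK1, was at 24.2, 25.4 and 26.2 CPM in IL6Myc-2, against 44.9, 44.7 and 48.3 in IL6Myc-1, 48.4, 47.7 and 44.7 in IL6Myc-3, 42.4, 40.7 and 44.1 in IL6Myc-4 and 27.1, 29.2 and 29.2 in IL6Myc-5. IL6Myc-5 stood next to IL6Myc-2 for this gene, with log2 differences of -0.67 in IL6Myc-2 and -0.45 in IL6Myc-5, each set against the 4 lines left, and the remaining 3 lines lay higher. Cdc25c, a related phosphatase, averaged 11.5 ± 0.644 CPM in IL6Myc-2, against means of 17.5 to 20.2 CPM that did not differ between neighbours in the other lines.

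Foxm1 encodes the transcription factor that drives many of these genes in G2. Its levels were 60.6, 47.5 and 58.0 CPM in IL6Myc-2, against 109, 98.0 and 109 in IL6Myc-1, 96.4, 96.0 and 99.9 in IL6Myc-3, 88.0, 74.7 and 80.3 in IL6Myc-4 and 73.5, 72.3 and 68.8 in IL6Myc-5. All 3 IL6Myc-2 libraries were below all others, with a log2 difference of -0.67 ± 0.06 (adjusted p = 1.12e-07 in edgeR). In IL6Myc-1 and IL6Myc-3, which did not differ from each other, the gene was 0.49 and 0.35 above the mean of the other lines on the log2 scale.

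The kinases Plk1, Plk4 and Aurka all had their lowest mean in IL6Myc-2, with log2 differences of -0.73, -0.60 and -0.63. Plk1, the Polo kinase of mitotic entry and the spindle poles, was at 45.1, 44.5 and 43.3 CPM in IL6Myc-2, against 75.6, 78.5 and 77.3 in IL6Myc-1, 85.1, 86.4 and 85.9 in IL6Myc-3, 70.6, 66.4 and 70.1 in IL6Myc-4 and 70.0, 59.3 and 62.5 in IL6Myc-5. Its log2 difference in IL6Myc-2 was -0.73 ± 0.04 (adjusted p = 3.01e-10 in edgeR), IL6Myc-3 was highest at 0.46, and only IL6Myc-5 and IL6Myc-4 were neighbours that did not differ. Plk4, the kinase of centriole duplication, was at 62.4, 56.8 and 61.3 CPM in IL6Myc-1, against 37.1, 33.6 and 23.5 in IL6Myc-2, 42.3, 55.8 and 48.4 in IL6Myc-3, 39.0, 39.98 and 45.5 in IL6Myc-4 and 48.2, 39.5 and 41.9 in IL6Myc-5. The IL6Myc-1 libraries were all above the 12 others (log2 difference 0.56 ± 0.10, adjusted p = 6.80e-05 in edgeR), while IL6Myc-2 was lowest at -0.60 with the widest spread of any line. Aurka, the Aurora kinase of centrosomes and spindle poles, was at 34.9, 35.7 and 34.3 CPM in IL6Myc-2, against 59.5, 56.8 and 58.4 in IL6Myc-1, 57.5, 58.1 and 56.2 in IL6Myc-3, 55.0, 55.3 and 55.6 in IL6Myc-4 and 46.7, 44.9 and 47.1 in IL6Myc-5. Its difference in IL6Myc-2 was -0.63 ± 0.04, IL6Myc-5 came next, and IL6Myc-4, IL6Myc-3 and IL6Myc-1 did not differ between neighbours.

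The chromosomal passenger complex was less displaced. Its 4 members had log2 differences in IL6Myc-2 between -0.38 and -0.21, with a median of -0.30, compared with -0.63 for the 3 kinases above, and the difference between these groups was not tested. Aurkb, the catalytic subunit of the complex, was at 62.9, 59.5 and 66.6 CPM in IL6Myc-2, against 66.4, 72.4 and 68.5 in IL6Myc-1, 80.3, 80.2 and 87.2 in IL6Myc-3, 80.7, 80.3 and 86.2 in IL6Myc-4 and 77.4, 69.6 and 68.1 in IL6Myc-5. The lines were close, with a difference of -0.28 ± 0.05 in IL6Myc-2 (adjusted p = 9.45e-05 in edgeR), and IL6Myc-2, IL6Myc-1 and IL6Myc-5 did not differ between neighbours. Incenp, the scaffold of the complex, averaged 101 ± 2.14 CPM in IL6Myc-2 and 106 to 127 CPM in the other lines, and no neighbours in its order differed. Its F-test over the lines without IL6Myc-2 gave an adjusted p of 0.0117 in edgeR. Birc5, survivin, averaged 68.7 ± 1.73 CPM in IL6Myc-2 and 78.5 to 94.6 CPM elsewhere. Cdca8, borealin, averaged 52.3 ± 1.195 CPM in IL6Myc-2 and 62.6 to 73.5 CPM elsewhere, and for both of these genes the IL6Myc-2 libraries lay below all others.

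The spindle checkpoint genes covered a wide range of differences. Ttk, Bub1 and Bub1b had log2 differences of -0.75, -0.44 and -0.60 in IL6Myc-2, Bub3 had -0.29, and Mad2l1 had 0.11. Ttk, the kinase MPS1 that starts the checkpoint at unattached kinetochores, was at 21.2, 21.6 and 22.2 CPM in IL6Myc-2, against 36.3, 33.2 and 33.1 in IL6Myc-1, 38.3, 42.3 and 41.3 in IL6Myc-3, 37.9, 35.4 and 35.6 in IL6Myc-4 and 34.6, 35.03 and 33.4 in IL6Myc-5. Its difference in IL6Myc-2 was -0.75 ± 0.05 (adjusted p = 1.02e-09 in edgeR), and IL6Myc-3 was the highest line at 0.39. Bub1b, BubR1 of the mitotic checkpoint complex, was at 102, 94.4 and 91.1 CPM in IL6Myc-2, against 176, 172 and 163 in IL6Myc-1, 126, 132 and 131 in IL6Myc-3, 131, 126 and 126 in IL6Myc-4 and 162, 159 and 150.5 in IL6Myc-5. IL6Myc-2 was lowest at -0.60 ± 0.04, IL6Myc-4 and IL6Myc-3 did not differ, and IL6Myc-5 at 0.29 and IL6Myc-1 at 0.44 stood above them. Mad2l1, which encodes MAD2, the inhibitor of CDC20 made at unattached kinetochores, was at 46.6, 51.2 and 51.5 CPM in IL6Myc-2, against 50.6, 50.04 and 45.9 in IL6Myc-1, 49.9, 51.9 and 49.0 in IL6Myc-3, 44.9, 43.5 and 46.0 in IL6Myc-4 and 39.5, 44.3 and 38.3 in IL6Myc-5. The IL6Myc-2 libraries sat among those of the other lines, at 0.11 ± 0.05 (adjusted p = 0.0546 in edgeR), and no neighbours in its order differed. The lowest line was IL6Myc-5, at -0.24 ± 0.05 against the lines that remain when IL6Myc-2 is left out (adjusted p = 9.5e-04 in edgeR). Bub1, a kinetochore kinase, averaged 48.6 ± 4.64 CPM in IL6Myc-2 and 58.3 to 79.3 CPM in the other lines, with IL6Myc-1 highest. Bub3, the binding partner of BUB1 and BUBR1, averaged 87.1 ± 0.336 CPM in IL6Myc-2 and 97.6 to 125 CPM elsewhere, a log2 difference of -0.29 ± 0.03.

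Among the genes that bring on anaphase, Cdc20 and Ube2c differed in the line that was highest. Cdc20, the activator of the APC/C and the target of the checkpoint, was at 145, 144 and 157 CPM in IL6Myc-5, against 116, 123 and 117 in IL6Myc-1, 93.6, 99.6 and 90.9 in IL6Myc-2, 134, 130.3 and 136 in IL6Myc-3 and 118, 116 and 129 in IL6Myc-4. The IL6Myc-5 libraries were above all others, as for 6.41% of all tested genes (log2 difference 0.36 ± 0.04, adjusted p = 7.50e-07 in edgeR), and IL6Myc-2 was lowest at -0.45. Ube2c, the ubiquitin-conjugating enzyme that works with the APC/C, was at 100.3, 107 and 106 CPM in IL6Myc-1, against 58.3, 60.7 and 58.2 in IL6Myc-2, 85.5, 84.3 and 83.2 in IL6Myc-3, 72.5, 73.9 and 72.6 in IL6Myc-4 and 65.1, 68.2 and 65.5 in IL6Myc-5. Here IL6Myc-1 was highest at 0.57 ± 0.03 (adjusted p = 2.98e-11 in edgeR) and IL6Myc-5 second lowest, and each neighbour in the order IL6Myc-2, IL6Myc-5, IL6Myc-4, IL6Myc-3, IL6Myc-1 differed from the next. Espl1, separase, which cuts cohesin at anaphase, was at 61.9, 51.8 and 42.5 CPM in IL6Myc-2, against 73.5, 66.5 and 61.7 in IL6Myc-1, 94.5, 84.9 and 91.6 in IL6Myc-3, 86.8, 85.0 and 89.6 in IL6Myc-4 and 88.8, 78.9 and 68.0 in IL6Myc-5. IL6Myc-2 was lowest at -0.62 ± 0.09, with its highest library among those of IL6Myc-1, and the other 4 lines did not differ between neighbours. As a set those 4 lines did differ when fitted without IL6Myc-2 (F-test, adjusted p = 9.27e-04 in edgeR), with IL6Myc-1 lowest at -0.35 ± 0.07. Pttg1, securin, the inhibitor of separase, averaged 40.7 ± 1.67 CPM in IL6Myc-2 and 46.1 to 59.3 CPM in the other lines, a log2 difference of -0.36 ± 0.05.

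The 5 centromere and kinetochore genes all had their lowest mean in IL6Myc-2, with a median log2 difference of -0.52. Cenpa, the centromeric form of histone H3, was at 39.8, 43.0 and 39.8 CPM in IL6Myc-2, against 52.3, 55.6 and 50.2 in IL6Myc-1, 68.2, 58.0 and 63.4 in IL6Myc-3, 52.5, 55.6 and 58.9 in IL6Myc-4 and 63.2, 59.9 and 68.3 in IL6Myc-5. IL6Myc-2 lay below all others at -0.52 ± 0.06 (adjusted p = 5.68e-07 in edgeR), IL6Myc-1 and IL6Myc-4 did not differ, and neither did IL6Myc-3 and IL6Myc-5 above them. Cenpf, a large protein of the outer kinetochore, was at 81.2, 90.4 and 85.5 CPM in IL6Myc-4, against 62.1, 85.8 and 73.4 in IL6Myc-1, 56.1, 51.5 and 59.3 in IL6Myc-2, 51.8, 62.0 and 62.1 in IL6Myc-3 and 69.6, 66.8 and 51.2 in IL6Myc-5. IL6Myc-4 was highest at 0.46 ± 0.09 (adjusted p = 2.94e-04 in edgeR), but its libraries overlapped those of IL6Myc-1 and no neighbours in the order differed. Fitted without IL6Myc-2, the remaining lines still differed for Cenpf (F-test, adjusted p = 0.00239 in edgeR). Cenpe, the kinesin of kinetochores, averaged 37.9 ± 3.63 CPM in IL6Myc-2 and 49.9 to 62.6 CPM elsewhere. Ndc80 and Nuf2 encode partners in the complex that holds microtubules at the kinetochore, and their log2 differences in IL6Myc-2 were -0.59 ± 0.05 for Ndc80 and -0.30 ± 0.05 for Nuf2. Ndc80 averaged 27.9 ± 2.002 CPM in IL6Myc-2 and 39.2 to 45.7 CPM in the other lines, whereas the IL6Myc-2 libraries of Nuf2, at 68.2, 76.4 and 70.0 CPM, overlapped the IL6Myc-5 libraries at 70.4, 82.8 and 75.9 CPM.

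The spindle motors and the assembly factor Tpx2 had all of their IL6Myc-2 libraries below the 12 others. Kif11 was at 79.1, 76.9 and 80.6 CPM in IL6Myc-2, against 171, 155 and 152 in IL6Myc-1, 130.4, 137 and 139 in IL6Myc-3, 116, 119 and 114 in IL6Myc-4 and 117, 133 and 113 in IL6Myc-5. Between IL6Myc-1 and IL6Myc-2 it passed the 2-fold threshold, 1.02 ± 0.06 on the log2 scale (adjusted p = 1.43e-10 in edgeR), and was the only member called in that pair, where 19% of all tested genes were called. That call did not hold without replicate 1 of IL6Myc-1 (0.96) or without replicate 2 of IL6Myc-2 (0.99). Tpx2, which activates Aurora A on the spindle, followed the same order, at 101 ± 1.15 CPM in IL6Myc-2, against 143 ± 5.04 in IL6Myc-5, 145 ± 2.85 in IL6Myc-4, 164 ± 7.26 in IL6Myc-3 and 194 ± 6.41 in IL6Myc-1, except that the middle 2 lines, which did not differ, changed places. Kif2c, the microtubule depolymerase MCAK, averaged 24.8 ± 1.59 CPM in IL6Myc-2 and 33.5 to 39.3 CPM in the other lines. Kif4, a chromosome-bound motor, averaged 31.7 ± 3.94 CPM in IL6Myc-2 and 42.2 to 49.9 CPM in the other lines.

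The genes of the midzone and of cytokinesis had the widest range of values within a role: the log2 difference in IL6Myc-2 was -0.91 for Kif20a and -0.64 for Ect2, against -0.17 for Prc1 and 0.25 for Kif23. Kif20a, which carries Aurora B to the midzone, was at 38.7, 37.1 and 39.0 CPM in IL6Myc-2, against 71.2, 69.9 and 67.4 in IL6Myc-1, 76.4, 76.8 and 78.0 in IL6Myc-3, 67.4, 73.7 and 66.4 in IL6Myc-4 and 72.0, 75.4 and 70.9 in IL6Myc-5. Its difference in IL6Myc-2 was -0.91 ± 0.04 (adjusted p = 4.76e-12 in edgeR), and the other lines did not differ between neighbours. With IL6Myc-2 left out, Kif20a differed among the remaining lines (F-test, adjusted p = 0.0214 in edgeR), highest in IL6Myc-3 at 0.13 ± 0.04. Between IL6Myc-2 and IL6Myc-3 it passed the 2-fold threshold, at -1.01 ± 0.05 (adjusted p = 1.94e-11 in edgeR), the only member called in that pair, where 14% of all tested genes were called. That call did not hold without replicate 2 of IL6Myc-2 (-0.98) or with limma in place of edgeR (-0.99). Ect2, which activates RhoA for the cleavage furrow, was at 57.8, 55.5 and 56.8 CPM in IL6Myc-1, against 32.8, 26.2 and 26.4 in IL6Myc-2, 46.2, 50.8 and 49.9 in IL6Myc-3, 37.998, 38.4 and 36.2 in IL6Myc-4 and 38.1, 40.97 and 34.5 in IL6Myc-5. IL6Myc-1 was highest at 0.60 ± 0.06 (adjusted p = 1.34e-07 in edgeR), IL6Myc-2 lowest at -0.64, and IL6Myc-4 and IL6Myc-5 did not differ. Prc1, which bundles the microtubules of the midzone, was at 111, 122 and 124 CPM in IL6Myc-3, against 88.9, 82.2 and 86.3 in IL6Myc-1, 80.7, 90.5 and 80.3 in IL6Myc-2, 96.6, 92.0 and 96.3 in IL6Myc-4 and 81.4, 83.2 and 81.5 in IL6Myc-5. The IL6Myc-3 libraries were above all others (0.46 ± 0.04, adjusted p = 5.74e-08 in edgeR), and IL6Myc-5, IL6Myc-2 and IL6Myc-1 did not differ between neighbours. Kif23, the motor of centralspindlin and the only member with its highest mean in IL6Myc-2, was at 48.3, 46.5 and 50.5 CPM in IL6Myc-2, against 39.8, 39.4 and 53.0 in IL6Myc-1, 43.5, 37.5 and 42.8 in IL6Myc-3, 37.4, 39.4 and 35.1 in IL6Myc-4 and 40.9, 38.4 and 43.5 in IL6Myc-5. Its libraries overlapped between the lines, the log2 difference in IL6Myc-2 was 0.25 ± 0.08 (adjusted p = 0.00958 in edgeR), and no neighbours in its order differed.

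The 2 genes best known as marks of proliferating cells were among the least displaced. Mki67, which encodes Ki-67, the surface coat of mitotic chromosomes, was at 605, 587 and 622 CPM in IL6Myc-2, against 742, 668 and 639 in IL6Myc-1, 673, 668 and 639 in IL6Myc-3, 549.6, 515 and 526 in IL6Myc-4 and 634, 692 and 573 in IL6Myc-5. IL6Myc-2 stood at -0.05 ± 0.05 (adjusted p = 0.429 in edgeR) and overlapped the other lines, and the lowest line was IL6Myc-4 at -0.28 ± 0.05 (adjusted p = 1.34e-04 in edgeR), all of whose libraries lay below the 12 others, as for 6.72% of all tested genes. Top2a, the topoisomerase that untangles chromosomes, averaged 376 ± 8.13 CPM in IL6Myc-2 and 387 to 474 CPM in the other lines, a log2 difference of -0.18 ± 0.03, and its IL6Myc-2 libraries overlapped those of IL6Myc-1.

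**Figure D4:**
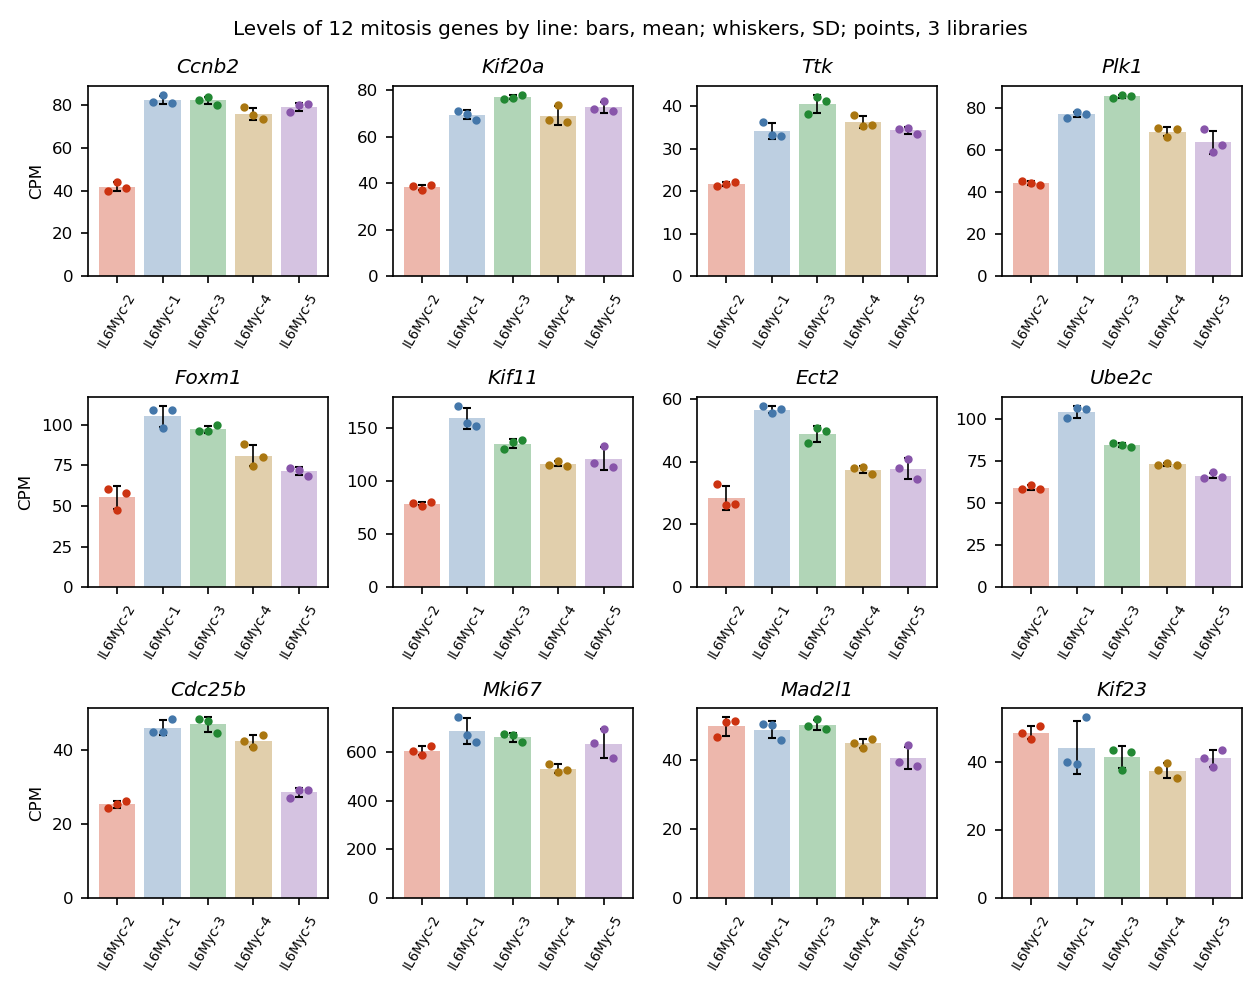
Levels of 12 mitosis genes in each library (points, CPM, linear y axes starting at 0), with the mean of each line as a bar and the SD over its 3 libraries as a whisker. Kif11, Kif20a and Ccnb2 have all IL6Myc-2 points below every other point, whereas the points of Mad2l1, Kif23 and Mki67 overlap between IL6Myc-2 and other lines.

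Among the other 4 lines, the highest means were mostly those of IL6Myc-3 and IL6Myc-1. IL6Myc-3 had the highest mean for 17 of the 38 (14.9% of all tested genes were highest there) and IL6Myc-1 for 15 (26.7% of all tested genes). IL6Myc-4 was highest for 3 members, IL6Myc-5 for 2 and IL6Myc-2 for 1, where 18.5% of all tested genes were highest in IL6Myc-4, 16.2% in IL6Myc-5 and 23.7% in IL6Myc-2. Against the mean of the other 4 lines, the median log2 difference of the members was 0.17 in IL6Myc-1, 0.26 in IL6Myc-3, 0.05 in IL6Myc-4 and -0.04 in IL6Myc-5. These contrasts all contain IL6Myc-2 in the mean that they are set against and are not independent of each other or of the contrast for IL6Myc-2. No member was called higher or lower by 2-fold in any of these 4 lines by edgeR, DESeq2 or limma. At an unadjusted p under 0.05 in edgeR 20 to 31 members a line differed, and the share of all tested genes there was not counted. At an adjusted p under 0.05 and any size, 53.6 to 68.2% of all tested genes differed in a line. Of all tested genes, 4.39% were called higher and 8.11% lower in IL6Myc-1, 4.6% higher and 3.05% lower in IL6Myc-3, 5.28% higher and 4.37% lower in IL6Myc-4, and 4.8% higher and 3.19% lower in IL6Myc-5. At 1.5-fold 1 member, Ect2, was higher in IL6Myc-1, where 10.5% of all tested genes were. Without a size threshold, 29 members were higher and 0 lower in IL6Myc-3 (of all tested genes 27.2% were higher and 26.4% lower), and 21 were higher and 4 lower in IL6Myc-1 (of all tested genes 34.3% higher and 33.9% lower). In IL6Myc-4 14 were higher and 2 lower (of all tested genes 28.6% higher and 27.4% lower), and in IL6Myc-5 8 were higher and 10 lower (of all tested genes 28.9% higher and 25.9% lower). All 3 libraries lay above the 12 others for 11 members in IL6Myc-3 (5.9% of all tested genes) and for 7 in IL6Myc-1 (14.5%), which were Plk4, Bub1, Bub1b, Ube2c, Kif11, Tpx2 and Ect2.

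With IL6Myc-2 left out, a fit chosen after its values were seen, none of the 38 members differed by 2-fold among the 4 remaining lines in edgeR, where 25.1% of the 11594 genes tested in that fit did. The median range of the 4 line means was 0.34 on the log2 scale for the members and 0.57 for all tested genes. The widest ranges belonged to Cdc25b (0.72), Ube2c (0.65), Ect2 (0.58), Cenpf (0.56), Foxm1 (0.55) and Prc1 (0.54). At any size 34 of the 38 still passed the F-test at an adjusted p under 0.05 in edgeR, as did 86.2% of all genes tested in that fit. In the pairs of single lines, no member differed by 2-fold between IL6Myc-2 and IL6Myc-4 or IL6Myc-5 (14% and 12.2% of all tested genes), nor between IL6Myc-1 and IL6Myc-3, IL6Myc-4 or IL6Myc-5 (11.4%, 15.7% and 14.6%). The same held for IL6Myc-3 with IL6Myc-4 or IL6Myc-5 (11.5% and 9.86%) and for IL6Myc-4 with IL6Myc-5 (11.3%). In these 8 pairs DESeq2 and limma called 0 members too. At an unadjusted p under 0.05 in edgeR 21 to 38 members a pair differed, and the share of all tested genes there was not counted. At an adjusted p under 0.05 and any size, 53.2 to 65.9% of all tested genes differed in these pairs. At 1.5-fold IL6Myc-1 and IL6Myc-2 differed in 19 members (34.3% of all tested genes) and IL6Myc-2 and IL6Myc-3 in 18 (26.6%). At that size 11 differed between IL6Myc-2 and IL6Myc-4 (25.5%) and 10 between IL6Myc-2 and IL6Myc-5 (22.2%). Between IL6Myc-1 and IL6Myc-5 3 members differed by 1.5-fold (27.8% of all tested genes), between IL6Myc-1 and IL6Myc-4 1 (29%) and between IL6Myc-3 and IL6Myc-5 1 (19.1%). The 3 other pairs had 0 in edgeR, where 20.9% of all tested genes differed between IL6Myc-1 and IL6Myc-3, 20.1% between IL6Myc-3 and IL6Myc-4 and 20.3% between IL6Myc-4 and IL6Myc-5. At any size the pairs with IL6Myc-2 differed in 33 members for IL6Myc-1 (86.8%, against 70.9% of all tested genes), 35 for IL6Myc-3 (92.1%, against 62.5%), 38 for IL6Myc-4 (60.1% of all tested genes) and 33 for IL6Myc-5 (86.8%, against 56.4%). Among the other lines IL6Myc-1 differed in 24 members from IL6Myc-3 (63.2%, against 58%) and in 21 from IL6Myc-4 and 21 from IL6Myc-5 (55.3% in each pair, against 65.9% and 65.5%). IL6Myc-3 differed in 23 from IL6Myc-4 (60.5%, against 53.2%) and in 27 from IL6Myc-5 (71.1%, against 55.3%), and IL6Myc-4 differed in 18 from IL6Myc-5 (47.4%, against 53.3%).

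Other genes of mitosis, listed by role with earlier results of these data known, had lower values in IL6Myc-2 as well. Of 123 such genes, 122 were in the table under the names used and 121 were tested, and their median log2 difference in IL6Myc-2 was -0.39. In that line 98 of the 121 were lower and 6 higher at any size (81% and 4.96%, against 32.2% and 33.4% of all tested genes), while 2 were called lower by 2-fold (1.65%, against 4.08% of all tested genes) and 0 higher. The medians in IL6Myc-2 ran from -0.54 for 28 genes of the spindle, centrosome and cytokinesis through -0.41 for 27 kinetochore genes, -0.39 for 17 genes of condensin and cohesin and -0.35 for 10 partners of the checkpoint. They were nearer 0 for 22 genes of mitotic entry and the DREAM and MuvB complexes, at -0.21, and for 17 subunits and regulators of the APC/C, at -0.17. Differences between these lists were not tested. The 36 genes of replication and S phase had a median of -0.41 in IL6Myc-2, with 33 lower and 1 higher at any size and 0 called by 2-fold, as the plot of list medians by library shows beside the members.

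**Figure D5:**
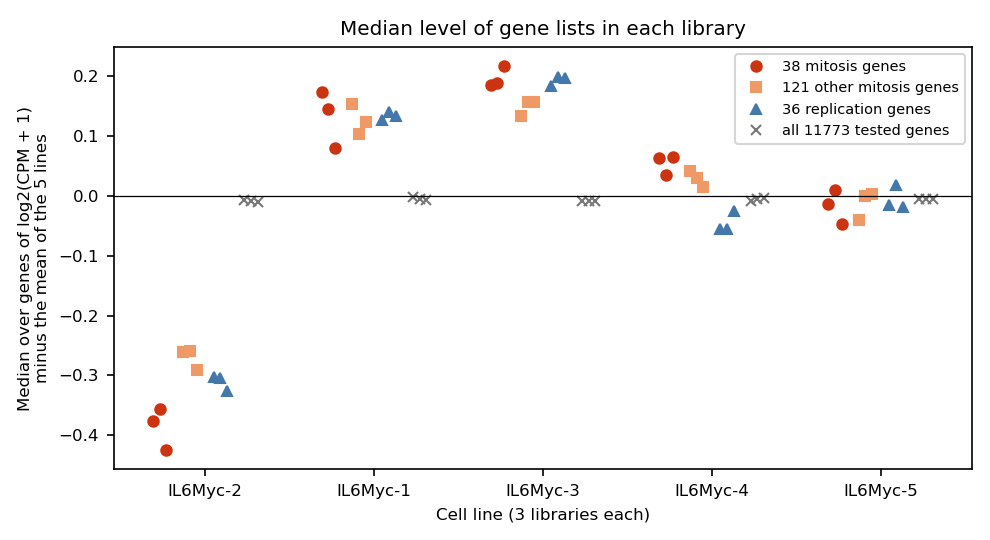
Median over genes of log2(CPM + 1) in a library minus the gene's mean over the 5 lines, for the 38 mitosis genes, 121 other mitosis genes, 36 replication and S phase genes and all 11773 tested genes, with 1 point per library (x axis: libraries by line). The 3 IL6Myc-2 points of the members and of both other cell cycle lists lie below those of the other lines, while the medians of all tested genes lie near 0 in every library.

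Of the genes on these lists, 1 was called in both IL6Myc-2 and IL6Myc-1, Cep55, an abscission factor that takes part in the final cut between daughter cells. It was at 48.7, 50.1 and 47.6 CPM in IL6Myc-2, against 171, 169 and 161 in IL6Myc-1, 80.3, 85.1 and 80.5 in IL6Myc-3, 91.0, 91.3 and 92.1 in IL6Myc-4 and 82.3, 88.0 and 76.3 in IL6Myc-5. Cep55 was called lower in IL6Myc-2, at -1.04 ± 0.04 (adjusted p = 1.43e-12 in edgeR), and higher in IL6Myc-1, at 1.17 ± 0.03 (adjusted p = 2.97e-14 in edgeR), and IL6Myc-1 and IL6Myc-2 did not overlap any other line. E2f7, an atypical E2F that represses transcription, was called lower in IL6Myc-2, where it averaged 9.16 ± 0.782 CPM, against means of 16.8 to 21.4 CPM (log2 difference -1.004 ± 0.07). Mastl, the Greatwall kinase that protects CDK1 phosphorylations, was called higher in IL6Myc-1, at 22.9 ± 3.13 CPM, against 8.37 to 14.8 CPM in the other lines (1.07 ± 0.10). Ensa, a substrate through which Mastl inhibits the phosphatase PP2A, was called higher in IL6Myc-5, at 219.7, 206 and 215 CPM, against means of 66.3 to 83.5 CPM in the other lines (1.51 ± 0.03, adjusted p = 3.17e-16 in edgeR). In the F-test over the 5 lines 16 of the 121 genes were called (13.2%) and 1 of the 36 replication genes, Ccne1, cyclin E1 (2.78%), beside 32.1% of all tested genes.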

How the data were processed

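RNA was isolated with a column kit and sequenced from stranded total RNA libraries, per the labels' protocols. The submitters' processing notes name Trim Galore 0.4.0, DESeq2 (no version) and GRCm39. Which aligner, quantifier and annotation were run is not given in the sources used here. Although the file name refers to TPM, library totals differ (19068543 to 41165599), and the deposited values were therefore treated as estimated counts and rounded to whole numbers. A length correction by the quantifier would remain in them. A deposited column of means was not used, and 0 library columns were left unmapped.

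Entries reaching 1 CPM in 3 libraries or more (11773) were scaled by TMM and fitted in edgeR 4.0.16 (R 4.3.3, quasi-likelihood) over the 15 libraries, with line as the only factor and Benjamini-Hochberg adjustment over all of them. Calls needed an adjusted p under 0.05 and a log2 difference of 1 or more. Comparisons were an F-test over lines, lines against the mean of the rest, and the 10 pairs. Neighbours in an order of levels were said to differ at an adjusted p under 0.05 for their pair. Lines further apart in an order can differ where no neighbours do. The fit was tested on simulated data. Alternatives were DESeq2 1.42.0, limma 3.58.1, other scalings, filters and thresholds, a replicate block and left-out libraries.

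Members and lists were chosen with earlier results of these data known. Values in every library are given for members called in a comparison, the 3 largest differences per line and a fixed member or pair per role, and other lists name the genes called in a line. No 2 libraries of a line were identical, and their counts differed beyond sampling noise (chi-square 4.54 to 20.0 per degree of freedom), so all were kept. The 38 genes had a median coefficient of variation of 4.13% within a line and at least 655 counts per line. Pseudogene copies of Ccnb1 and Kif4 are listed in the table, so reads could be split between them and the genes.

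Promoter windows come from RefSeq on GRCm38.p6, not the submitters' build, and were used for their letters alone. They were matched by symbol, and Ccna2, Cdc25c, Foxm1, Aurkb, Incenp, Tpx2 and Kif20a had no window here.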

Additional observations from a re-analysis of the deposited data

How the results depend on the processing

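The 2 members called over the lines, Kif11 and Kif20a, numbered 4 with Ccnb2 and Ect2 under upper quartile scaling or with no filter (32.3% and 25.7% of all genes called) and 1 with limma on log2(CPM + 1), Kif11 (26% of all genes). They numbered 1 to 4 when a replicate was left out (31.3 to 32.2% of all genes): 1, Kif20a, without replicate 1 of IL6Myc-1; 1, Ccnb2, in place of both, without replicate 2 of IL6Myc-2; 3 with Ect2 without replicate 2 of IL6Myc-1; and 4 with Plk4 and Ect2 without replicate 1 of IL6Myc-2. Called members between IL6Myc-1 and IL6Myc-2 numbered 2 under upper quartile scaling (19.1% of all genes), 3 with no filter (14.9%) and 0 to 3 with a replicate left out (18.1 to 19% of all genes; 0 without replicate 1 of IL6Myc-1, 2 without replicate 2 of IL6Myc-1 and 3 without replicate 1 of IL6Myc-2). Between IL6Myc-2 and IL6Myc-3 they numbered 2 under upper quartile scaling (14.1% of all genes) and 0 with limma (9.5%). The members' median in IL6Myc-3 was 0.29 under upper quartile scaling. Library totals without further scaling gave 18 members over the lines (36.2% of all genes), 5 lower in IL6Myc-2 (6.74%), and 15, 12, 5 and 2 in the pairs of IL6Myc-2 with IL6Myc-1, IL6Myc-3, IL6Myc-4 and IL6Myc-5 (21.5%, 15.7%, 16.2% and 12.7% of all genes). Under them the members' medians were 0.25 in IL6Myc-1, -0.80 in IL6Myc-2, 0.36 in IL6Myc-3 and 0.18 in IL6Myc-4, while the medians of all genes moved to 0.08, -0.29, 0.11 and 0.12. Relative to all genes the members lay at -0.51 in IL6Myc-2. Scaling shifts all genes of a library alike, so that relative value could not change with it and is no check of the result.

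At 1.5-fold the counts, with the share of all genes, were 25 over the lines (57.6%), 1 higher in IL6Myc-1 (10.5%) and 15 lower in IL6Myc-2 (8.81%). In pairs they were 19 (IL6Myc-1 and 2, 34.3%), 1 (1 and 4, 29%), 3 (1 and 5, 27.8%), 18 (2 and 3, 26.6%), 11 (2 and 4, 25.5%), 10 (2 and 5, 22.2%) and 1 (3 and 5, 19.1%). With no size threshold they were 38 over the lines (91.7%). The counts higher and lower were 21 and 4 in IL6Myc-1 (34.3% and 33.9%), 1 and 35 in IL6Myc-2 (33.4% and 32.2%), 14 and 2 in IL6Myc-4 (28.6% and 27.4%) and 8 and 10 in IL6Myc-5 (28.9% and 25.9%), with 29 higher in IL6Myc-3 (27.2%). In pairs they were 33 (1 and 2, 70.9%), 24 (1 and 3, 58%), 21 (1 and 4, 65.9%), 21 (1 and 5, 65.5%), 35 (2 and 3, 62.5%), 38 (2 and 4, 60.1%), 33 (2 and 5, 56.4%), 23 (3 and 4, 53.2%), 27 (3 and 5, 55.3%) and 18 (4 and 5, 53.3%). Leaving out IL6Myc-2, added after seeing the data, gave 0 called members and medians of 0.087 in IL6Myc-1, 0.14 in IL6Myc-3, -0.059 in IL6Myc-4, where the sign reversed, and -0.17 in IL6Myc-5; the means that the lines are set against no longer hold IL6Myc-2 there.

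With a replicate left out, the median was 0.049 to 0.077 in IL6Myc-4, -0.046 to -0.0081 in IL6Myc-5 and -0.54 to -0.50 in IL6Myc-2, 34 to 35 members were lowest in IL6Myc-2, and 29 to 31 had all IL6Myc-2 libraries below all others. The size factors of DESeq2, a 5 CPM filter and scaling without immunoglobulin and ribosomal RNA moved none of the summary results. A full fit in DESeq2 moved none of the counts of called members. The members' medians and their order across lines were not compared in that fit. Replicate numbers did not pair libraries across lines: same-numbered libraries correlated at -0.084 to 0.110 in their deviations, and 5 of 15 correlated best with their own number. With the replicate block 2 members were called over the lines and the median in IL6Myc-2 was -0.52, and the block changed no other call. Of 408 refitted values of 17 named genes and contrasts, 404 kept their direction and their side of the threshold, and the 4 exceptions are those given for Kif11 and Kif20a. The cause of these shifts was not tested. Every member had at least 655 counts in every line.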
